A study of Mus musculus and Homo sapiens with 12 samples.

Results

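The elements described here were the mouse ERVK copies that lie outside the IAP, ETn and MusD, and RLTR10 and MMERVK10 groups. They were taken from a table of mm10 repeat elements as every row annotated as ERVK whose subfamily name does not start with IAP, ETn, MMETn, RLTRETN, RLTR10 or MMERVK10. This rule gave 224317 of 3158171 elements, in 240 subfamilies, out of 256648 ERVK elements in all. The libraries were caRNA, that is RNA still bound to chromatin after cell fractionation, precipitated with an antibody against 5-methylcytosine (m5C) and sequenced by meRIP–seq. They came from mouse embryonic stem (mES) cells that were wild type (WT, 3 libraries) or knocked out for Tet2 (Tet2-KO, 3 libraries), kept in serum with LIF, CHIR99021 and PD0325901. TET2 oxidises m5C, and the comparison asks which of these repeat RNAs differ in the m5C-bound fraction when it is lost. Both cell lines were gifts from another laboratory, and the labels do not say whether the replicates were separate cultures or whether the KO line is a single clone, so the spread between libraries may be partly technical. The table holds repeats only, so neither Tet2 transcripts nor markers of the pluripotent state could be checked here.

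ERVK elements are long terminal repeat (LTR) retrotransposons related to betaretroviruses. A complete copy has an internal part with the viral genes between a pair of LTRs, which carry the promoter and the polyadenylation signal, and recombination between the LTRs leaves solo LTRs, the most common remnant. In the annotation, names with -int, -I or _I mark internal parts and the rest are counted here as LTRs, although a merged element with an LTR name can hold a whole provirus. In mES cells the younger groups are silenced by KRAB zinc finger proteins and H3K9 methylation, whereas some older LTRs such as RLTR9 and RLTR13 types serve as binding platforms of pluripotency factors.

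Counts were sparse. Between 31002 and 52412 estimated counts a library fell on these elements, out of 1532029 to 3318565 counts on DNA, LINE, LTR and SINE elements, and every KO library was shallower than every WT library. Of the 224317 elements 25927 had counts in at least 1 library (11.6%), against 60.4% of IAP, 42.5% of ETn and MusD and 52.7% of RLTR10 and MMERVK10 elements. Most of the counted elements (61.7%) had counts in only 1 library, and 784 (3.02%) had counts in all 6. Among the 828 elements with at least 50 counts, 383 (46.3%) had at least 90% of them in a single library. The 100 highest elements held 31.7% of the counts. Long copies were counted more often. Counts fell on 64.6% of the 2082 elements of at least 4000 bases but on 10.1% of the 208866 elements under 1000 bases.

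The sequences of the copies on which the results below turn are shown first, read from the mm10 genome on the strand of the element. A group of 3 RMER12C copies on chromosome 2 had counts in every WT library and in no KO library. RMER12C is a rodent LTR family, present here as short fragments between genes. Capitals mark where the first and last of them differ, including a base that the last does not cover.
RMER12C at chr2:177060361-177060448, plus strand: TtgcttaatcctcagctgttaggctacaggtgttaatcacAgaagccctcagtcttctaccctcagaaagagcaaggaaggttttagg
RMER12C at chr2:176093861-176093948, minus strand: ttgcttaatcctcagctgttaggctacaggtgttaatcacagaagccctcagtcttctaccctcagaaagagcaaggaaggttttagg
RMER12C at chr2:175082904-175082990, minus strand: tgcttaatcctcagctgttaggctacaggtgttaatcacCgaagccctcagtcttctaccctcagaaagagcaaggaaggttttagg
The first pair was identical over 88 bases, and the last copy differed from the first at 2 of 88 aligned positions (97.7% identity), so reads could not be placed between them with certainty and their values are not independent. The next sequence is the start of an RLTR45 element of 8435 bases on the same chromosome, with a higher mean in the KO. The one after it is an ERVB7_1-LTR_MM copy on chromosome 14, from the subfamily with the most counts. Capitals mark CpG dinucleotides in both.
RLTR45 at chr2:175811308-175811607, minus strand: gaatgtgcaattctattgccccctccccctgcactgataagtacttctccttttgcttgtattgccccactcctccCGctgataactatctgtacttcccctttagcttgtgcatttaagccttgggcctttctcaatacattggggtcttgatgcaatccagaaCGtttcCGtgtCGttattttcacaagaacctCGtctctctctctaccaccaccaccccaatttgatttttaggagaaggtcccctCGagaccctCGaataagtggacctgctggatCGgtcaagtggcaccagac
ERVB7_1-LTR_MM at chr14:49602168-49602467, plus strand: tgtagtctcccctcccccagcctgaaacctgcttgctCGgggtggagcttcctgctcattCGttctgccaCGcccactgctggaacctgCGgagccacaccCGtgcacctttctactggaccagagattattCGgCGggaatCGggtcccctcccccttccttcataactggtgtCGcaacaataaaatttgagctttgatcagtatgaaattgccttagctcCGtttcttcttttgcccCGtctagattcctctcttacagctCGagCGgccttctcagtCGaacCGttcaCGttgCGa
The ERVB7_1-LTR_MM stretch held 17 CpG and the RLTR45 stretch 8. RMER6A on chromosome 4 supplied 3 of the 5 loci with the highest mean count, and the 300 bases shown were the same in all 3. The RLTR9E copy had the most counts of its subfamily and was chosen after its values were seen. Here too capitals mark CpG in RLTR9E, which has 0 in this stretch, and no base of RMER6A is capitalised because none differed.
RMER6A at chr4:146644852-146645151, plus strand: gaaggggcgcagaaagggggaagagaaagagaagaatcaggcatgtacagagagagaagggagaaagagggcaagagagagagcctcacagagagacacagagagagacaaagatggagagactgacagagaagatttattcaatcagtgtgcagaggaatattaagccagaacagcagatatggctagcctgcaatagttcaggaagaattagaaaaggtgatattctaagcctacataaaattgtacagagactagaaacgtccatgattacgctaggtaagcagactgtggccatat
RLTR9E at chr13:65649820-65650119, plus strand: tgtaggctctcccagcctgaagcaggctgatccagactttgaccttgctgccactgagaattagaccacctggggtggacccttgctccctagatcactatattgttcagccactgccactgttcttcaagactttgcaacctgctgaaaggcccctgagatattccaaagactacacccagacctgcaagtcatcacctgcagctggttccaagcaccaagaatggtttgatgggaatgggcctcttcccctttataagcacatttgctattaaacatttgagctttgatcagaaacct

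The share of these elements in the library was higher in the KO. It was 1.68%, 1.65% and 1.57% of library counts in WT replicates 1 to 3, against 1.89%, 2.02% and 2.04% for the KO. All KO libraries were above all WT libraries, with means of 1.63% ± 0.0560 and 1.98% ± 0.0806 (SD, n = 3 each) and a log2 ratio of 0.28. As a share of all ERVK counts the elements made up 15.6% ± 0.488 in WT and 17.0% ± 0.635 in KO (SD, n = 3 each), again with no overlap. IAP elements had a log2 ratio of 0.02 with overlapping libraries. ETn and MusD elements had 0.43 without overlap, and RLTR10 and MMERVK10 elements had 0.30 with overlap. These are relative levels. The table has no input or spike-in columns, so a difference mixes the abundance of an RNA with its recovery by the antibody, and it moves with the counts on all other repeats.

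**Figure D1:**
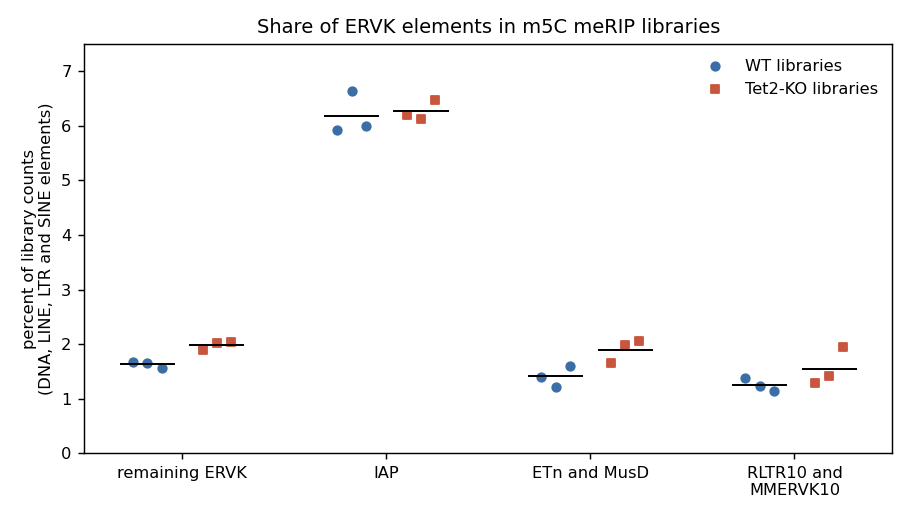
Percent of library counts on DNA, LINE, LTR and SINE elements (y axis) that fell on the remaining ERVK elements and on the other 3 ERVK groups, for 3 WT (circles) and 3 Tet2-KO (squares) libraries, with group means as lines. The remaining ERVK elements lay between 1.57% and 1.68% in WT and between 1.89% and 2.04% in KO, while IAP libraries overlapped.

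LTRs differed without overlap and internal parts did not, and the difference between the kinds was not tested. LTR subfamilies made up 1.19% ± 0.0536 of WT and 1.49% ± 0.0384 of KO counts (SD, n = 3 each), without overlap and with a log2 ratio of 0.32. Internal parts made up 0.444% ± 0.0310 and 0.500% ± 0.0573, which overlapped. By position in the gene annotation, 34.1% of the counted elements lay in introns, 4.52% touched an exon and 61.4% lay between genes, beside 32.3%, 2.79% and 64.9% of the 223762 elements on chromosomes 1 to 19, X and Y. Intronic elements had 0.435% ± 0.0464 of the WT and 0.564% ± 0.00875 of the KO counts and intergenic elements 1.04% ± 0.0288 and 1.23% ± 0.0586 (SD, n = 3 each), both without overlap, with log2 ratios of 0.38 and 0.25. Elements that touch an exon overlapped between genotypes, with a log2 ratio of 0.24.

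The name groups did not move alike. RLTR9 elements, some of which bind pluripotency factors in mES cells, took up 0.0170%, 0.00827% and 0.00640% of WT libraries but 0.0353%, 0.0473% and 0.0512% of KO libraries. They had the largest log2 ratio among the groups whose libraries did not overlap, 2.08. Different copies weighed in different KO libraries. In KO 2, RLTR9E copies on chromosome 13 had 304 and 182.5 counts, against at most 1.5 in any other library. In KO 3, RLTR9D copies on chromosome 12 had 224 and 212 counts, against 0 in every other library. RLTR44 and RLTR45 had a log2 ratio of 1.00, the other RLTR subfamilies outside the numbered groups 0.58 and the ERVB subfamilies 0.44, each with every KO library above every WT library. The RLTR17 to RLTR20 group went the other way, from 0.230%, 0.201% and 0.188% in WT to 0.144%, 0.166% and 0.138% in KO, a log2 ratio of −0.46 without overlap. Without the elements between 174 and 178 Mb of chromosome 2 the group had 0.132%, 0.180% and 0.113% in WT and 0.125%, 0.167% and 0.134% in KO, a log2 ratio of 0.00 with overlap. Without the region RLTR44 and RLTR45 (0.44) and the ERVB subfamilies (0.43) overlapped too, whereas RLTR9 (2.07) and the other RLTR subfamilies (0.60) did not. RLTR13, RMER, MMERVK9, BGLII, MYSERV and the remaining names overlapped. MMTV with RLTR3, the relatives of the mouse mammary tumour virus, rested on 1 WT library, with 0.0148% of its counts against at most 0.000136% in the other 5 libraries.

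**Figure D2:**
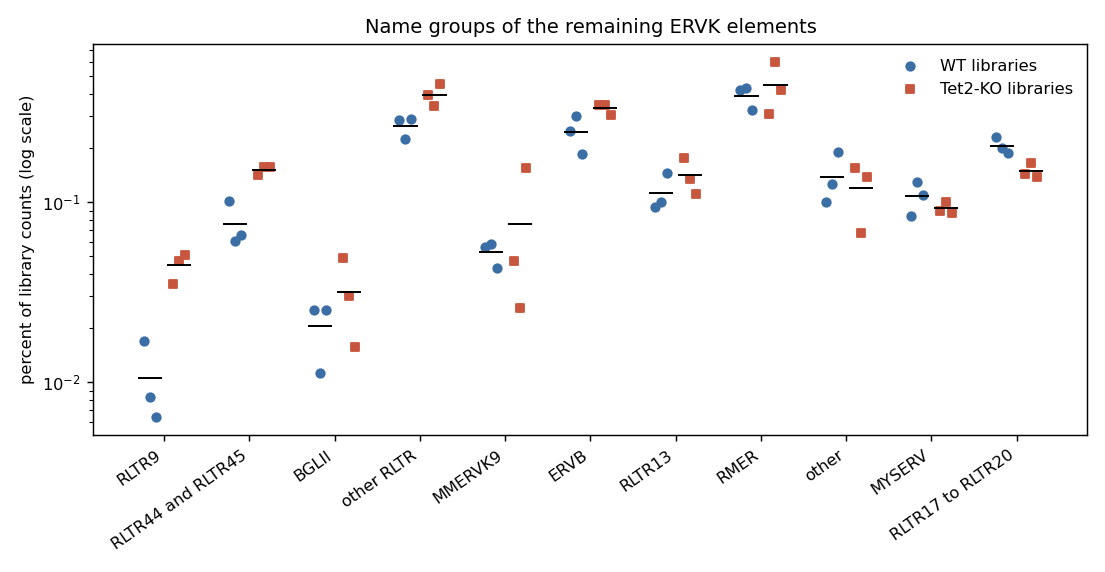
Percent of library counts (y axis, log scale) on 11 name groups of the remaining ERVK elements in 3 WT (circles) and 3 Tet2-KO (squares) libraries, with group means as lines, ordered by the log2 ratio of the means. RLTR9, at the left, lay between 0.00640% and 0.0170% in WT and between 0.0353% and 0.0512% in KO, and RLTR17 to RLTR20, at the right, was the group without overlap that was lower in KO. MMTV with RLTR3 is not drawn.

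No subfamily passed the test. Counts were summed for each subfamily, and 150 of the 240 had enough for the edgeR quasi-likelihood test, which was fitted on 547 subfamilies of all 4 classes. Of these 547, 11 had an adjusted p under 0.05 (2.01%), and 0 of them were among the 150. At an unadjusted p under 0.05 the 150 had 28 subfamilies (18.7%, 17 higher and 11 lower in KO), beside 87 of all 547 (15.9%). Groups that did not overlap were found in 25 of the 150 (16.7%, 16 higher and 9 lower), below the 21.6% of all 547, and the 16 higher ones compare with 11.2% of all 547. The median log2 change was 0.21 over the 150 and 0.12 over all tested subfamilies. The DESeq2 Wald test called 15 of the 150 (8 higher, 7 lower), which is 10.0%, next to 10.2% of all 547. It gave no adjusted p to 15 of the 150 and 29 of the 547, which therefore could not be called. The 15 were RLTR11A2, RLTR12C, RLTR13C2, RLTR15, RLTR34B_MM, RLTR34C_MM, RLTR45 and RLTR9E, all higher in KO, and RLTR13A, RLTR20B1, RLTR26, RLTR26_Mus, RLTR33, RMER12C and RMER17A-int, all lower. With subfamilies that lacked an adjusted p kept in the totals, neither test called a larger share of these subfamilies than of all tested subfamilies. Such subfamilies were more frequent among the 150, so the DESeq2 shares do not rest on like totals.

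LTR subfamilies, 127 of the 150 tested, held 27 of the 28 small unadjusted p-values, 17 higher and 10 lower. This was 21.3% of the LTR subfamilies, beside 15.9% of all 547 tested subfamilies. The median log2 change of the LTR subfamilies was 0.25. Among 23 internal parts 1 was lower at that level (4.35%), and their median was −0.20. All 4 tested RLTR9 subfamilies had positive log2 changes, with a median of 1.37, and 2 of them had an unadjusted p under 0.05. Single libraries moved these values: RLTR9D had 0.14 without KO 3, and RLTR9A had −0.06 without KO 2. The other RLTR names had 9 higher and 4 lower among 36 tested at that level (36.1%) and a median of 0.35. The RMER names had 1 higher and 3 lower among 37 (10.8%), with a median of 0.07. The 12 tested ERVB, 5 BGLII and 3 MYSERV subfamilies had 0 at that level.

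ERVB7_1-LTR_MM, the LTR of a betaretrovirus-like element, had the most counts. Its level was 1023, 1820 and 1010 CPM (counts scaled to the library total, with TMM normalisation) in WT against 2058, 1820 and 1719 CPM in KO. WT 2 reached the KO libraries, so the groups overlapped, and the log2 change was 0.54 ± 0.279 (SE) with an edgeR adjusted p of 0.371. Per megabase of annotated sequence it was also the highest, at 6659 CPM, ahead of RLTR20B1 at 1675, RLTR13A2 at 1629 and RLTR13G at 1100 CPM. Its 772 annotated copies supplied 8.58% of the counts on these elements, and 435 copies were counted, 95 of them in all 6 libraries. No copy dominated it: the highest held 4.28% of its counts.

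RLTR31D_MM was spread over more copies. It had 454, 537 and 370 CPM in WT and 702, 675 and 753 CPM in KO, without overlap, from 2828 counted copies of 6514. The log2 change was 0.65 ± 0.279 (SE), with an edgeR adjusted p of 0.301. Its highest copy held 7.54% of its counts over all libraries, but single libraries leaned on different copies, the highest holding 22.2% in WT 2 and 17.2% in KO 1.

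The other subfamilies among the 10 with the highest mean CPM, leaving aside RLTR45 and RLTR20B1, were RMER6A, RLTR40, RMER12B, MYSERV6-int, MMERVK9E_I-int and RLTR19-int, whose libraries overlapped between genotypes. Their log2 changes ran from −1.04 (RLTR19-int) to 0.65 (RLTR40), and the smallest edgeR adjusted p among them was 0.528. Single libraries moved these values: RLTR19-int had −2.31 without KO 2 and −0.54 without WT 2, and RLTR40 had 0.18 without KO 1, 0.27 without WT 2 and 1.22 without WT 3. RMER12B came almost entirely from an array on chromosome 6. There 14 copies, spaced by a median of 4326 bases between chr6:47651825-47766075 and outside annotated genes, held 93.8% of its counts, with 497, 148 and 329 CPM in WT and 148, 775 and 401 CPM in KO (here and for other windows without TMM).

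RLTR9E had 93.8, 19.5 and 20.1 CPM in WT and reached 174, 322 and 165 CPM in KO, a log2 change of 2.29 ± 0.798 (SE) that did not pass the edgeR test (adjusted p = 0.234). All KO libraries were above all WT libraries. The copies behind it were not the same in each library. Of 91 counted copies 71 had counts in 1 library and 1 had counts in all 6. In KO 1 the highest copy, on chromosome 13 from position 65396144, held 29.3% of the subfamily's counts, in KO 2 the copy shown above held 58.3%, and in KO 3 a copy on chromosome 12 from position 20551910 held 42.2%. In WT 2 and WT 3 most counts (55.5% and 78.4%) came from a copy on chromosome 18, the only copy counted in all 6 libraries. Replicates 1 to 3 of the WT gave 48.55, 32.53 and 47.32 unscaled counts there, those of the KO 57.35, 26.7 and 38.23. At this copy the genotypes overlapped in unscaled counts, although every KO library was shallower. The copy shown above, at chr13:65649820-65650227, had 304 counts in KO 2, 0.2 in WT 2 and 0 in the other 4 libraries, and it overlaps the processed pseudogene Gm48185. RLTR9E copies between 65 and 68 Mb of chromosome 13, where 24 of 48 annotated protein-coding genes have Zfp, Rex2 or Znf names (zinc finger proteins), held 56.4% of its counts. Those copies had 64.0, 0.126 and 0.603 CPM in WT and 129, 319 and 0 CPM in KO, which overlapped.

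The listed pluripotency-factor LTRs were otherwise low. RLTR9D had 8.44, 11.9 and 5.04 CPM in WT and 8.39, 10.5 and 242 CPM in KO, so that its log2 change of 3.24 ± 1.36 (SE, edgeR adjusted p = 0.301) rested on KO 3. RLTR17 had 24.9, 21.2 and 19.5 CPM in WT and 33.6, 38.2 and 23.7 CPM in KO, which overlapped. RLTR9A, at 2.34 to 6.61 CPM in WT and 1.37 to 9.25 CPM in KO, and RLTR13D6, at 3.31 to 8.44 and 3.36 to 17.3 CPM, overlapped as well. RLTR9B2 had too few counts for the test, with 1.2, 36.7 and 1.5 counts in WT against 4, 85.6 and 0 in KO. The octamer ATTTGCAT, the site of POU factors, was searched on both strands of the first 300 bases. It was in 1.17% of 4547 RLTR9 elements of at least 300 bases, 0.0921% of RLTR9E and 0% of RLTR9A, beside 2.23% of all 120377 remaining ERVK elements of that length.

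**Figure D3:**
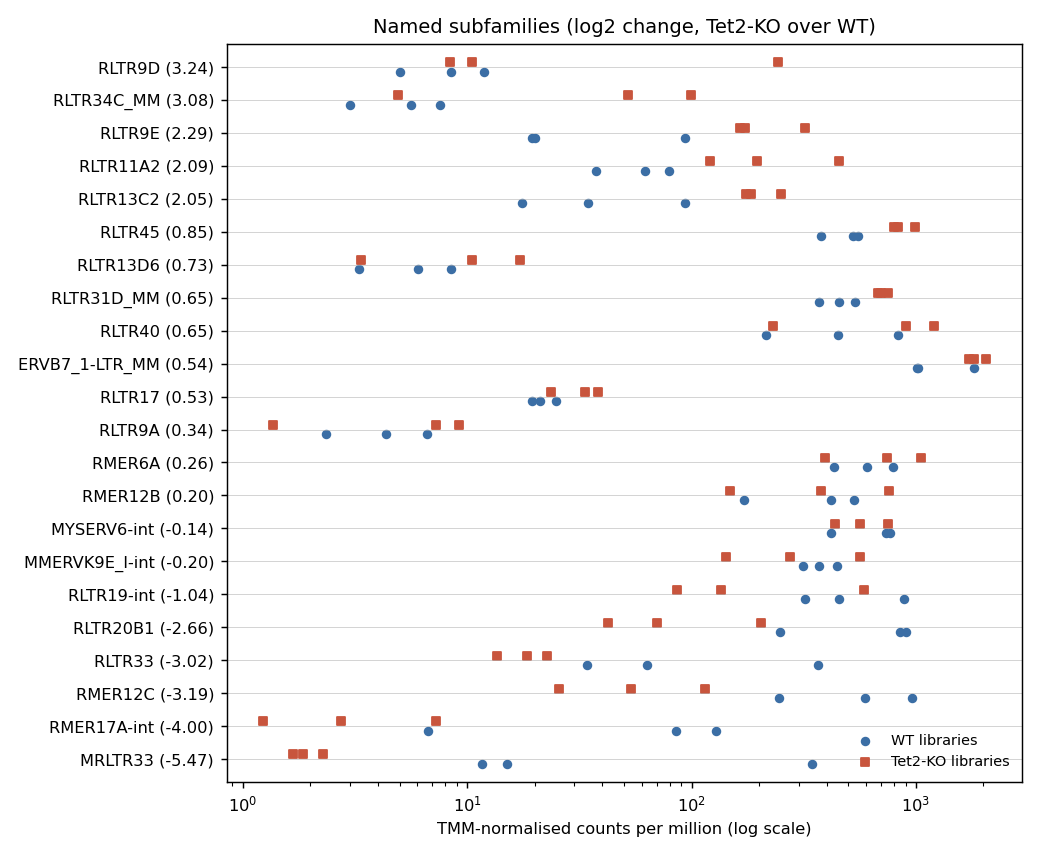
TMM-normalised CPM (x axis, log scale) of the 22 tested subfamilies named here, in 3 WT (circles) and 3 Tet2-KO (squares) libraries, ordered by the log2 change in parentheses. RLTR9E, RLTR11A2, RLTR13C2, RLTR45 and RLTR31D_MM lay higher in every KO library, RMER12C, RLTR20B1, RLTR33 and MRLTR33 lay lower in every KO library, and the rest overlapped.

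RLTR11A2, RLTR13C2 and RLTR45 were the other LTR subfamilies with the smallest p among those higher in every KO library and with at least 50 counts a library on average. RLTR11A2 had 61.9, 79.3 and 37.6 CPM in WT and 195, 452 and 121 CPM in KO. The log2 change was 2.09 ± 0.656 (SE), with an adjusted p of 0.234 by edgeR. RLTR11A2 copies between 18 and 25 Mb of chromosome 12 held 65.6% of its counts. They had 19.6, 47.2 and 2.81 CPM in WT and 147, 444 and 33.1 CPM in KO, which overlapped. All repeats in that window had 8837, 8711 and 8192 CPM in WT and 9845, 8933 and 13451 CPM in KO. The remaining ERVK elements there had 316, 546 and 337 CPM in WT and 772, 604 and 1487 CPM in KO. Neither overlapped. The window also held 78.1% of the RLTR9D and 20.5% of the RLTR9E counts. The part of this regional difference in the subfamily values was not tested. Of 244 counted RLTR11A2 copies 4 had counts in all 6 libraries, and the highest copy differed between the KO libraries. RLTR13C2 had 93.3, 17.5 and 34.6 CPM in WT and 175, 184 and 251 CPM in KO. The log2 change was 2.05 ± 0.722 (SE), with the same adjusted p, and 2.92 without WT 1. Here too different copies carried each library. A copy on chromosome 14 held 89.3% of its counts in WT 1, a copy on chromosome 8 held 67.3% in KO 1 and a copy on chromosome 2 held 32.2% in KO 3, and 1 of 108 counted copies had counts in all 6 libraries. RLTR45 was the most even between libraries, at 552, 379 and 525 CPM in WT and 829, 993 and 801 CPM in KO, 1.80-fold higher on average (log2 change 0.85 ± 0.276 SE, edgeR adjusted p = 0.234). Its copies were not even. A copy on chromosome 2 held 39.1% of its counts in KO 2 and a copy on chromosome 12 held 24.7% in KO 3. Of 407 counted copies 17 had counts in all 6 libraries. Without the highest copy of every subfamily its log2 change was 0.50 (edgeR adjusted p = 0.433). RLTR34C_MM overlapped. It had 5.63, 7.6 and 3.02 CPM in WT and 52, 4.93 and 99.5 CPM in KO, and 1 copy held 86.6% of its counts.

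Of the subfamilies that were lower in KO, 3 rested on 1 or a few copies. MRLTR33 had 15, 11.6 and 344 CPM in WT and 1.68, 1.85 and 2.28 CPM in KO, without overlap, and a copy at chr13:65653751-65653972 held 91.6% of its counts, 984.62 of them in WT 3 (log2 change −5.47 ± 1.48 SE, edgeR adjusted p = 0.157). Without the highest copy of every subfamily, MRLTR33 had a log2 change of −2.02 and an edgeR adjusted p of 0.0277, from few counts. The next copy, at chr13:66491194-66491415, had 5.17, 4.5 and 14.75 counts in WT and 0 in each KO library. Copies between 65 and 68 Mb of chromosome 13 held 96.3% of the MRLTR33 counts. RLTR33 had 34.2, 63.1 and 366 CPM in WT and 18.5, 13.6 and 22.8 CPM in KO, and 1 copy held 68.6% of its counts. RMER17A-int had 128, 85.3 and 6.71 CPM in WT and 7.27, 1.23 and 2.74 CPM in KO, which overlapped at the lowest WT library.

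RMER12C had the smallest p of all 150. Its level was 591, 245 and 960 CPM in WT against 25.7, 53.6 and 115 CPM in KO, on average 9.26-fold lower in KO, with a log2 change of −3.19 ± 0.742 (SE) and an edgeR adjusted p of 0.0995. RLTR20B1 had 905, 248 and 852 CPM in WT and 203, 42.5 and 70.3 CPM in KO, with a log2 change of −2.66 ± 0.755 (SE) and an adjusted p of 0.172. In both subfamilies every KO library was below every WT library. Copies between 174 and 178 Mb of chromosome 2, bounds that were set after seeing the values, held 86.6% of the RMER12C, 96.6% of the RLTR20B1 and 31.9% of the RLTR45 counts. Of 54 protein-coding genes annotated there 9 have Zfp, Rex2 or Znf names and 35 have provisional Gm names. The sources used here do not give the strain background of either cell line, so a difference in sequence between the lines in this region cannot be told apart from the knockout.

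In that region RMER12C had 511, 204 and 835 CPM in WT and 0 in all 3 KO libraries, over 12 counted copies, each at 0 in every KO library. RLTR20B1 had 870, 230 and 757 in WT and 201, 1.84 and 50.7 in KO, and 16 of its 44 counted copies were at 0 in every KO library. RLTR45 went the other way, with 221, 3.19 and 0.964 in WT and 284, 720 and 350 in KO, and 6 of its 7 copies with at least 50 counts were higher in KO. Summed over all repeats the region was lower in KO, but not every class stood apart. All repeats in it had 14408, 11655 and 12027 CPM in WT and 6231, 7724 and 7617 in KO, a log2 ratio of −0.82 without overlap, and LINE elements alone had a log2 ratio of −0.87 without overlap. The remaining ERVK elements there had 2221, 1128 and 1760 CPM in WT and 795, 1274 and 1170 CPM in KO, which overlapped (log2 ratio −0.66), as did other LTR elements (−0.86) and SINE elements (−0.34). The part of this regional difference in the subfamily values was not tested, but the values outside the region can be given. With every element of the region left out, the log2 change of RMER12C was 0.61 (edgeR adjusted p = 0.713) and that of RLTR20B1 1.57 (adjusted p = 0.285), both turned in direction. That of RLTR45 was 0.12 (adjusted p = 0.878) and that of RLTR13C2 1.01 (adjusted p = 0.59). RLTR9E, at 2.28, and ERVB7_1-LTR_MM, at 0.51, moved by 0.03 or less from their full values. The share of all the elements in the library then had a log2 ratio of 0.35.

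**Figure D4:**
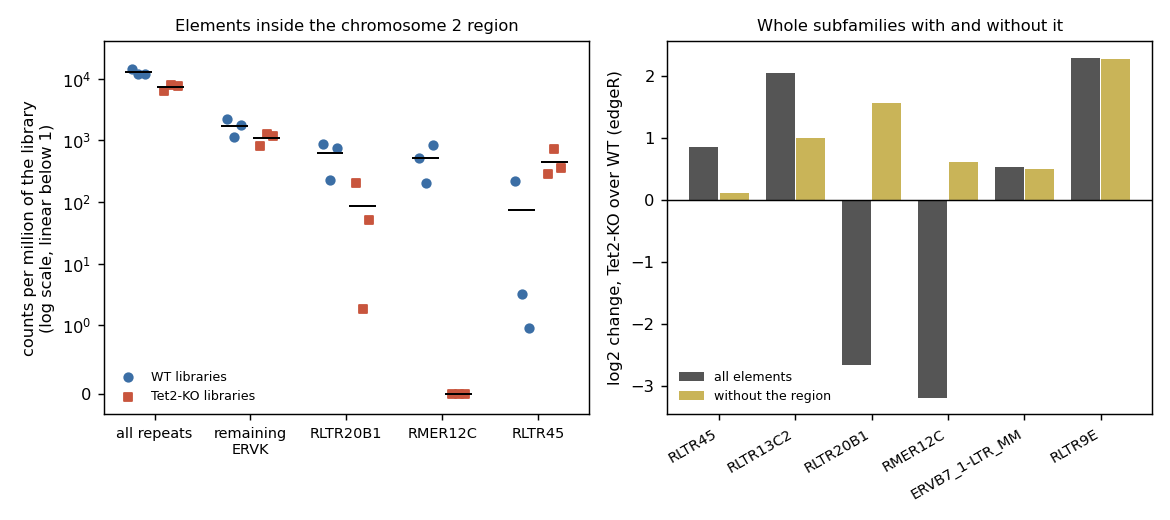
Left, CPM without TMM (y axis, log scale and linear below 1) on elements between 174 and 178 Mb of chromosome 2, for 3 WT (circles) and 3 Tet2-KO (squares) libraries, with group means as lines. Right, edgeR log2 changes of 6 whole subfamilies (y axis) with all elements and without the region. RMER12C was at 0 in all 3 KO libraries inside the region, and RMER12C and RLTR20B1 had positive log2 changes without it.

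Single loci were tested as well. Of 19030 loci that passed the filter, 260 were of these subfamilies, and 9 of the 19030 (0.0473%) but 0 of the 260 had an edgeR adjusted p under 0.05. At an unadjusted p under 0.05 there were 34 (17 in each direction), 13.1% against 21.0% of all loci. Groups did not overlap at 47 of the 260 (18.1%, 28 higher and 19 lower), also below the 27.7% of all loci. The DESeq2 Wald test called 25 (11 higher, 14 lower), 9.62% against 11.3% of all loci. The middle of the distribution was nonetheless higher: 172 of the 260 loci had a positive log2 change, beside 9782 of all 19030. The median was 0.49 beside 0.03 for all loci. With library totals in place of TMM both medians were lower by a similar amount, 0.25 and −0.22. The gap depended on the filter and on single libraries. Under a looser filter 590 of 1165 loci were above 0, with a median of 0.07 beside −0.08 for all loci, and the median was 0.10 without KO 1 and 0.20 without KO 2, beside −0.03 and −0.05.

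The median was higher for short loci. The median log2 change was 0.74 over 148 loci under 4000 bases and 0.14 over 112 loci of at least 4000 bases, and Spearman's rho between length and log2 change was −0.32 across the 260 loci, which share libraries and in part reads. ERVB7_1-LTR_MM, with 435 counted copies, supplied 48 of the 260. All 48 were of 316 to 320 bases, with 42 above 0, a range of −1.31 to 2.34 and a median of 0.96. The other 212 loci had a median of 0.35, with 130 above 0. Values by length and by subfamily are given for the main filter only. Of all 19030 loci 9782 were above 0. Among the 48 ERVB7_1-LTR_MM loci 2 had an unadjusted edgeR p under 0.05 (4.17%, against 21.0% of all loci). Groups did not overlap at 7 of the 48 (14.6%, against 27.7% of all loci). All 10 tested RLTR13G loci were above 0 (median 0.80) and all 8 tested RLTR13A2 loci were below 0 (median −0.72), none past the test. Both whole subfamilies overlapped between genotypes. RLTR13G had 376, 52.9 and 234 CPM in WT and 955, 254 and 189 CPM in KO (edgeR adjusted p = 0.552). RLTR13A2 had 104, 234 and 716 CPM in WT and 3.36, 213 and 11.4 CPM in KO (edgeR adjusted p = 0.476). The ERVB7_1-LTR_MM copies were rich in CpG. Their median was 13.0 CpG in the first 300 bases over 695 copies of at least 300 bases and 16.0 over the 48 tested copies, against 2.00 over all 120377 remaining ERVK elements of that length. The polyadenylation signal AATAAA was present on the element's strand in 100% of the 48 tested copies, 71.4% of the 695 and 37.4% of the 270 copies without counts, beside 26.5% of all 120377 elements. Over the 235 tested loci of at least 300 bases, Spearman's rho of the log2 change with the CpG number was 0.14 and with GC content 0.20.

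**Figure D5:**
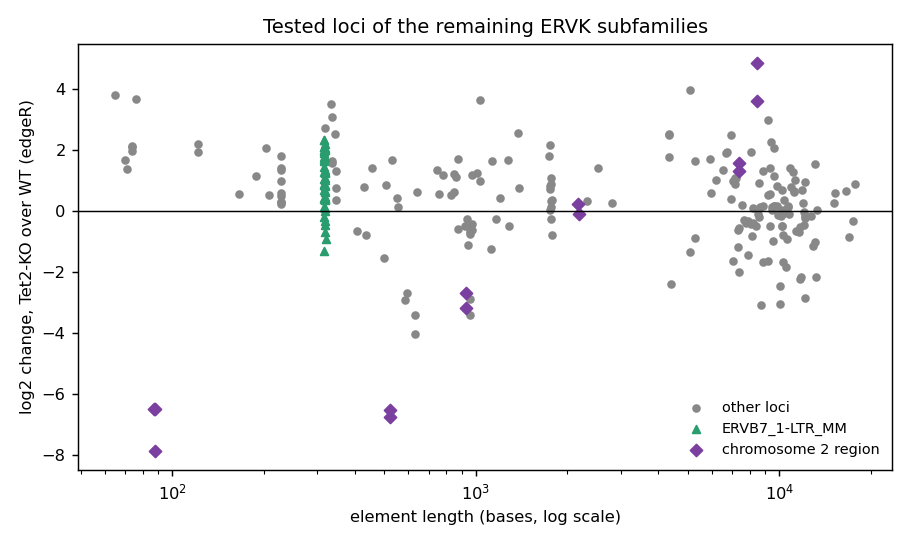
edgeR log2 change (y axis) of 260 tested loci against element length in bases (x axis, log scale), with ERVB7_1-LTR_MM copies as triangles and loci between 174 and 178 Mb of chromosome 2 as diamonds. Of the ERVB7_1-LTR_MM copies 42 of 48 lay above 0, beside 9782 of all 19030 tested loci. Loci with no KO counts are drawn at their fitted values, which depend on the prior count.

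The ERVB7_1-LTR_MM copy at chr14:49602168-49602486, between genes, had 20.8, 126 and 54.4 counts in WT against 219, 69.4 and 140 in KO. After normalisation all KO libraries were above all WT libraries, 4.36-fold on average (log2 change 2.08 ± 0.644 SE, edgeR adjusted p = 0.143). An element of 17819 bases at chr19:3079184-3097002, listed as ERVB4_3-LTR_MM, lay within an intron of the long non-coding RNA gene 1700030N03Rik on the opposite strand. This element had 65.8, 81 and 112 CPM in WT and 128, 219 and 136 CPM in KO, 1.86-fold higher (log2 change 0.89 ± 0.329 SE, edgeR adjusted p = 0.191). The RLTR45 element at chr2:175803173-175811607 had 51.8, 2.33 and 0 counts in WT against 34.2, 630 and 339 in KO. WT 1 lay within the range of the KO libraries there (log2 change 4.85 ± 1.80 SE, edgeR adjusted p = 0.193).

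The RMER12C copies printed above were the lower loci with the smallest p among those with at least 50 counts a library on average. The copy at chr2:177060361-177060448 had 171, 251 and 1563 counts in WT and 0 in each KO library. Set against a floor of 3 counts in each KO library, it was at least 101-fold lower in KO, and at least 37.3-fold lower without WT 3. Its counterparts at chr2:176093861-176093948 and chr2:175082904-175082990 had 71.2, 109 and 583 and 68.8, 112 and 584 counts in WT and 0 in each KO library, at least 38.9-fold and 39.0-fold lower (15.9-fold for each without WT 3). The edgeR adjusted p was 0.101 for each of the 3. All 3 lay between genes, the nearest annotated genes (the pseudogenes Gm14421 and Gm14387 and the long non-coding RNA gene Gm11008) being 3523, 3511 and 3502 bases away. A pair of RLTR20B1 copies in the region, at chr2:175487539-175488059 and chr2:176688076-176688596, had 50 to 469 and 21.5 to 512 counts in WT and at most 0.5 in KO, at least 39.7-fold and 46.4-fold lower, or 9.92-fold and 15.3-fold without WT 1.

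Of the 5 loci with the highest mean count, 3 were RMER6A copies of 347 bases on chromosome 4. RMER6A is an old rodent LTR, and these copies lie among Zfp genes, within introns of Zfp993 (chr4:146644852-146645198) and Zfp991 (chr4:147165734-147166080) and between genes at chr4:145815160-145815506. The first of them had 142, 150 and 162 CPM in WT and 186, 469 and 116 CPM in KO, the second 45.2, 153 and 194 and 126, 268 and 115, and the third 113, 143 and 12.5 and 223, 331 and 116 CPM. Libraries overlapped at all 3, and the smallest edgeR adjusted p was 0.397. All the remaining ERVK elements from 145 to 148 Mb of chromosome 4, where 19 of 30 protein-coding genes have zinc finger names, had 1459, 1042 and 1122 CPM in WT and 1529, 2840 and 1565 in KO. Every KO library was above every WT library there (log2 ratio 0.71), while all repeats in the window overlapped (log2 ratio 0.51). SINE elements in the window stood apart as well, with 130, 13.0 and 57.6 CPM in WT and 230, 207 and 703 CPM in KO (log2 ratio 2.51). LINE elements (0.04) and other LTR elements (0.35) overlapped.

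MYSERV-int is the internal part of an ERVK provirus, and its copy of 8110 bases at chr1:15257119-15265228, between genes, was the fifth of the loci with the highest counts. It had 130, 172 and 118 CPM in WT and 114, 47 and 80.2 CPM in KO, lower in every KO library (log2 change −0.80 ± 0.368 SE, edgeR adjusted p = 0.27). The whole MYSERV-int subfamily had 386, 532 and 400 CPM in WT and 326, 175 and 203 CPM in KO, also without overlap (log2 change −0.90 ± 0.395 SE, adjusted p = 0.301). A further copy on the X chromosome, chrX:73267395-73279180, had 72.1, 57.8 and 72.4 counts in WT against 7.66, 6.55 and 5.47 in KO, with little spread in either group (adjusted p = 0.101). The same reads are listed under a MERVK26-int element that overlaps it, and 17.6% of the counted remaining ERVK elements were covered over at least 50% of their length by another counted element.

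Beyond the naming rule, a few loci were chosen after their values were seen because all libraries of a genotype stood apart. Short RLTR31D_MM copies on chromosome 9 (from position 42125214) and chromosome 3 (from position 43663651) had 0.93, 2.68 and 1.7 and 2.4, 0.8 and 1 counts in WT and 13.2, 51.8 and 22.6 and 11, 46.4 and 11.7 in KO. The first of them had the smallest p of the 260 loci, and both had an adjusted p of 0.101. An RLTR13A2 copy on chromosome 10 (from position 3246036) had 12.1, 46.3 and 20.8 counts in WT and 0 in each KO library, at least 4.21-fold lower by the floor (2.80-fold without WT 2). A pair of RLTR19-int copies, internal fragments on chromosome 5 (from position 16729612) and chromosome 8 (from position 112013580), had 40.8 to 150 and 29.9 to 267 counts in WT and 4.83 to 7.9 and 6 to 8.17 in KO. An ERVB4_1-I_MM element on chromosome 19 (from position 3159211) had 96.6, 109 and 36.3 counts in WT against 9.47, 8.16 and 7.45 in KO. The ERVB4_3-LTR_MM element of the same chromosome, by contrast, was higher in KO. None of these passed the edgeR test.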

How the data were processed

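Libraries were the m5C meRIP–seq fractions of caRNA from WT and Tet2-KO mES cells (SMARTer Stranded Pico v2 libraries, 3 each). Per the labels and methods, adapters were cut with Trimmomatic 0.39, and HISAT2 2.1.0 aligned reads to mm10. The authors removed duplicates with Picard and counted with featureCounts over merged repeat elements (One code to find them all). The deposited values are estimated counts per element, of which 28.2% of the non-zero values on these elements were whole (tolerance 1e-09) and 48.8% below 1. How reads with several placements were divided is not given in the sources used here. The human table and the study's K-562 libraries were not used here.

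Counts were summed per subfamily or kept per locus, rounded, and fitted with edgeR 4.0.16 (quasi-likelihood test, filterByExpr, TMM, prior count 2, library size from DNA, LINE, LTR and SINE counts, Benjamini–Hochberg over all tested features, call at adjusted p under 0.05, SE as the absolute log2 change over the square root of F) in R 4.3.3. DESeq2 1.42.0 was an alternative. Shares are descriptions without a test. A mean of 50 counts, the smallest unadjusted p, the highest mean CPM and a list of 6 pluripotency-factor LTRs chose the named subfamilies (every call, 5 higher and 5 lower, 10 highest, the list) and loci (every call, 3 higher and 3 lower, 5 highest), and every other subfamily or locus in the text was chosen after its values were seen. The members and lists were chosen with earlier results of these data known. CPM of subfamilies and loci are scaled by TMM, those of genomic windows are not. Values are given with the spread between libraries, and intervals of counting error were not computed. The bounds of all genomic windows were set after seeing the values.

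Gene context came from GENCODE mouse release 21, which is later than the release the authors named, with bedtools 2.31.1, and sequences from the GRCm38.p6 genome. On simulated counts with 200 subfamilies changed 4-fold the edgeR test found 63 of the 189 tested, with 0 false calls, and for loci 0 of 178. Alternatives were other normalizations, filters, the DESeq2 test, a replicate block, removal of the highest elements and leaving out each library. Removal of the chromosome 2 region, of the highest element of every subfamily and, for fold bounds, of the highest WT library were chosen after seeing the data.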

Additional observations from a re-analysis of the deposited data

How the results depend on the processing

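The count of subfamilies called was 0 under DESeq2 size factors, library totals, the looser filter, library sizes from every class, removal of the 10 highest elements, of elements under 10 counts and of the chromosome 2 region. It was 15 with the DESeq2 Wald test, 1 (MRLTR33) without the highest element of each subfamily, and 0 to 1 over left-out libraries, the 1 being ERVB4_3-I_MM without WT replicate 2. The count of loci called was 25 with DESeq2 and 0 otherwise, with a range of 0 to 0 over left-out libraries. Same-numbered WT and KO libraries did not deviate together (correlations −0.09, −0.04 and −0.05). With the replicate block, 0 subfamilies and 0 loci were called, so no call among these elements changed. The block left 18 of 150 subfamilies and 39 of 260 loci at an unadjusted p under 0.05, and 0 of all 547 subfamilies were called with it, against 11 without. Over all features DESeq2 called 56 subfamilies and 2158 loci, against 11 and 9 with edgeR, and leaving out a library gave 5 to 8 subfamilies and 0 loci. The log2 ratio of the library share was 0.35 without the chromosome 2 region and 0.25 to 0.31 over left-out libraries. Direction turned for RMER12C (0.61) and RLTR20B1 (1.57) without that region. It also turned for MYSERV6-int with library totals (0.05), without elements under 10 counts (0.04) and without KO replicate 1 (0.03). Over left-out libraries the log2 change ranged from −0.49 to 0.59 for RMER12B (−0.16 without WT replicate 2, lowest without KO replicate 2), from −0.09 to 0.55 for RMER6A, from −0.86 to 0.17 for MMERVK9E_I-int, from −0.06 to 0.77 for RLTR9A, from −0.37 to 0.03 for MYSERV6-int, and from −0.11 to 0.75 for the RMER6A locus at 147165734 (also below 0, −0.04, without WT replicate 1). In all of these but MYSERV6-int the turned value was without KO replicate 2. Of 453 values of the named subfamilies and loci under alternatives, 426 kept direction and side of the threshold, 15 kept direction and passed it, and 12 turned. None of those that turned was called, and the causes were not tested. KO libraries held 1532029 to 1999210 counts against 2199886 to 3318565 in WT. In simulation at this depth and spread a 4-fold change was found at 0 of 178 loci. Those loci were drawn at random from all tested loci. Detection at the loci with the most counts was not simulated apart.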
